A study of Mus musculus with 12 samples.

Results

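Long intergenic noncoding RNAs (lincRNAs) expressed in the injured mouse kidney were examined, gene by gene, in RNA-seq libraries of whole kidneys. The 265 lincRNAs described here were chosen by their measured level. They have the biotype lincRNA in both deposited tables and average 1 FPKM or more over all 12 libraries. FPKM stands for fragments per kilobase of exon, scaled here by a size factor for the depth of each library. The small nucleolar RNA host genes of the Snhg family, Gas5 and 2410006H16Rik were set aside by name. The lincRNAs described were 265 of 5559 lincRNA genes in the tables, which list 54532 genes. 5289 lincRNA genes lay below the level, 2902 of them at 0 in all 12 libraries, and 5 above it carried a name that was set aside. The first group was kidneys of β-catenin-/- C57BL/6 mice after unilateral ureteral obstruction (UUO), in which one ureter is tied off, and it was compared with wild-type C57BL/6 mice after the same surgery. The second was kidneys of CD44-/- C57BL/6 mice after UIRI, a unilateral ischemia/reperfusion injury made by clamping and releasing the vessels of one kidney, compared with wild-type C57BL/6 mice after UIRI. Each of the 4 groups had 3 mice. In the study β-catenin was deleted by a Cre recombinase under the Ksp-cadherin promoter, which directs the deletion to tubular cells. The study's staining showed the loss in distal and connecting tubules and in most proximal tubules. Its discussion places the deletion in collecting ducts and distal tubules, and in proximal tubules to some extent. How the CD44-/- line was made is not given in the sources used here. All 12 kidneys were injured, so no value describes a healthy kidney, and the labels give neither an age nor a time after surgery.

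A lincRNA is transcribed, capped and spliced like a messenger RNA but lies between protein-coding genes and has no long conserved reading frame. Some of these RNAs stay in the nucleus and hold protein bodies together, some are the precursors of microRNAs, some carry a short reading frame that is translated, and for most no function is known. They are usually less abundant and more restricted to one cell type than messenger RNAs, so in a kidney made of tubule, vessel, stroma and immune cells their level in bulk RNA also depends on how many cells of each type are present. In these bulk libraries, fewer cells of a type and less RNA per cell cannot be told apart.

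The libraries held 15940405 to 20737443 reads assigned to genes, and the 265 lincRNAs took 0.400% to 0.550% of them. The markers of proximal tubule cells summed to between 1346 and 2092 FPKM in β-catenin-/- kidneys and between 562.5 and 647 FPKM in wild-type kidneys after UUO, and 6 of the 8 markers were higher by the test used below. After UIRI that sum was 1856, 828 and 1554 FPKM in CD44-/- replicates 1, 2 and 3 and between 449.9 and 586 FPKM in wild-type kidneys, with 4 of 8 markers higher. Macrophage and monocyte markers ran the other way, at 483.6 to 568.3 FPKM against 950.5 to 1146 FPKM after UUO (6 of 7 lower) and at 692.6 to 1246 FPKM against 1833 to 1921 FPKM after UIRI (4 of 7 lower). The fibroblast markers summed to 61.8 to 191.4 FPKM against 192.4 to 233.1 FPKM after UUO and to 111.3 to 257.1 FPKM against 209.5 to 360.1 FPKM after UIRI. After UUO 4 of the 6 fibroblast markers were lower and after UIRI 2 of 6. The T cell markers summed to at most 17.6 FPKM in any library, and 0 of 5 were lower after UUO and 2 of 5 after UIRI. The thick ascending limb markers summed to 432.5 to 828.4 FPKM against 270.1 to 414.3 FPKM after UUO (1 of 3 higher), and overlapped after UIRI (0 of 3 passed). Those of distal tubule and collecting duct summed to 303.5 to 608 FPKM against 187.3 to 210.4 FPKM after UUO, and overlapped after UIRI (0 of 6 passed). Only 1 of these 6, Aqp2, was higher by the test after UUO. Slc12a3 differed there by 0.05 on the log2 scale, Atp6v1g3 by -0.05 and Slc4a1 by -0.08. Endothelial markers summed to 39.61 to 48.65 FPKM against 55.58 to 60.66 FPKM after UUO (1 of 5 lower). After UIRI they summed to 30.61 to 39.88 FPKM against 40.23 to 46.58 FPKM (0 of 5 passed). Marker sums of several cell types thus differed with the knockouts, not all in both models and not for every marker of a list. Their part in any lincRNA result was not tested. Ctnnb1, which encodes β-catenin, was at 84.7, 71.4 and 71.7 FPKM in β-catenin-/- kidneys and at 91.2, 86.7 and 98.5 FPKM in wild-type kidneys, without overlap (adjusted p = 0.19). Cd44 was at 18.97, 11.97 and 13.9 FPKM in the kidneys labelled CD44-/- and at 19.9, 16.3 and 17.8 FPKM in wild-type kidneys after UIRI (adjusted p = 0.34). The second pair of groups overlapped, and which part of Cd44 the allele removes is not given in the sources used here, so the total over the gene does not check that label, and CD44-/- below stands for the label.

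9 of the lincRNA genes contain a microRNA hairpin within their annotated span and on their strand (RefSeq, GRCm38.p6). The mature microRNAs of the hosts described below are given 5′ to 3′ with the seed, bases 2 to 8, in capitals, because the seed decides which messenger RNAs a microRNA binds.
mmu-miR-142a-5p: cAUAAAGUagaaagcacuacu
mmu-miR-142a-3p: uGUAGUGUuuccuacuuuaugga
mmu-miR-155-5p: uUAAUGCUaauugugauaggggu
mmu-miR-17-5p: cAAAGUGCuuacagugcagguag
mmu-miR-20a-5p: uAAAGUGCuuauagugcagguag
mmu-miR-19a-3p: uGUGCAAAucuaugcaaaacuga
mmu-miR-19b-3p: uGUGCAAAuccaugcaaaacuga
miR-17-5p and miR-20a-5p share one seed and miR-19a-3p and miR-19b-3p share another, and all 4 lie in Mir17hg. The hairpins of miR-155 and of the miR-17 cluster lie in annotated exons of their hosts, while that of miR-142 (chr11:87756864-87756927) lies inside the span of Mir142hg but not within one of its exons. The libraries measure the host transcripts, not the mature microRNAs.

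A RefSeq window from 250 bases before to 50 bases after a start site was found for 122 of the 265 genes. The windows below belong to lincRNAs that were higher in knockout kidneys in one or both comparisons and were picked because they hold the HNF1 half-site, and the capitals mark that half-site (GTTAAT or its reverse complement ATTAAC). HNF1 factors are regulators of epithelial genes in the kidney tubule.
D630029K05Rik, chr10:116964490-116964789, plus strand: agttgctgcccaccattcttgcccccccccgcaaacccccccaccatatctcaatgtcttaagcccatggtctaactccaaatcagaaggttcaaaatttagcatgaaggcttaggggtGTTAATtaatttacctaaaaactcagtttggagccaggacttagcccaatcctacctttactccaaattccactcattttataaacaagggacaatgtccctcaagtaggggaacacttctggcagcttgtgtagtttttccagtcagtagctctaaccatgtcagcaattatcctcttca
Gm10804, chr2:93452569-93452868, plus strand: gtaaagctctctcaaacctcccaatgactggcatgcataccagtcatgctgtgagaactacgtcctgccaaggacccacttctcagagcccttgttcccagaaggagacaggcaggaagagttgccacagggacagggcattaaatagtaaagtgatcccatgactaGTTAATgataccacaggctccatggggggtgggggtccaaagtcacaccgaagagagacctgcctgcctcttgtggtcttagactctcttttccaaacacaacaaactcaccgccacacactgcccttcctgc
0610006L08Rik, chr7:74853761-74854060, minus strand: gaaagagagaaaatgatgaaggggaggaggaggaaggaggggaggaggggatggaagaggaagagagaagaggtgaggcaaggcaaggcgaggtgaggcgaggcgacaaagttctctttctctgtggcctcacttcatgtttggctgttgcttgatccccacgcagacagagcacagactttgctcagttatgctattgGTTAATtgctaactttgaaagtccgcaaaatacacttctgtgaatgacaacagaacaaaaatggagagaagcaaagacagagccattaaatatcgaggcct
Gm12678, chr4:44943483-44943782, plus strand: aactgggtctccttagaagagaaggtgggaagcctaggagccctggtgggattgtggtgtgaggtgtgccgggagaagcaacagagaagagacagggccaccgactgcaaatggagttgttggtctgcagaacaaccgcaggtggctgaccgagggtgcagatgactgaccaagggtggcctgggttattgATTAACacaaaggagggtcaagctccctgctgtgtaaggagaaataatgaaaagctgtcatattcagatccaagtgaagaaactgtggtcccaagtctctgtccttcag
Among the 7 motifs searched on both strands in these windows, the HNF1 half-site was in 5 of the 8 windows of lincRNAs higher in β-catenin-/- kidneys whose start lay within 100 bases of the start in the deposited table, and in 6 of 11 (54.5%) without that limit. It was also in 2 of the 4 windows of lincRNAs lower in β-catenin-/- kidneys, those of Gm31651 and Gm13373 (0 of 2 within 100 bases), in 2 of 4 of those higher and 1 of 5 of those lower in CD44-/- kidneys. It was in 6.06% of the 99 windows of lincRNAs that passed the test in neither comparison and in 7.1% of all 32851 windows. The windows of 0610006L08Rik and Gm12678 also matched 10 and 11 of the 12 fixed letters of the full inverted repeat (the half-site, one free base and its reverse complement), a match of at least 10 letters being present in 1.36% of all windows. That longer search was added after the windows had been seen. The TCF/LEF motif through which β-catenin acts on DNA (CTTTGAT or ATCAAAG) was in 1 of the 11 windows, that of C330002G04Rik, and in 3.73% of all windows. The other motifs were the nuclear receptor half-site AGGTCA (0 of 11; 16.3% of all), the AP-1 motif TGANTCA (1 of 11; 7.81%), the interferon response half-site GAAANNGAA (2 of 11; 8.56%), the CRE TGACGTCA (0 of 11; 1.79%) and the E-box CACGTG (1 of 11; 7.15%). These shares are over few windows and have no test, and a match describes letters in a window, not binding.

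The lincRNAs were low compared with messenger RNAs. Their median level was 2.20 FPKM, against 8.19 FPKM for the 12373 protein-coding genes at or above the same level, and 123 of 265 (46.4%) lay between 1 and 2 FPKM. Only 28 reached 10 FPKM. The median lincRNA had 62.75 reads per library, against 680 for the protein-coding genes, and its coefficient of variation (CV) within a group was 24.2%, against 12.01%. The lincRNAs thus had both fewer reads and a wider replicate spread.

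Malat1, a nuclear RNA found at splicing speckles, was the highest, with a mean of 138 FPKM. It was at 74.8, 163 and 190 FPKM in β-catenin-/- kidneys and at 158, 135 and 174 FPKM in wild-type kidneys after UUO, and at 109, 138 and 112 FPKM in CD44-/- kidneys and 132, 112 and 158 FPKM in wild-type kidneys after UIRI. One β-catenin-/- kidney was thus at less than any other library, and knockout and wild-type values overlapped in both models. Neat1, the RNA around which paraspeckles form, was second (chr19:5824708-5845478), at 69.3, 106 and 74.1 FPKM against 71.5, 65.9 and 69.8 FPKM after UUO, and at 69.2, 56.9 and 71.6 FPKM against 74.5, 67.7 and 62.7 FPKM after UIRI, knockout first. Neither RNA passed the test in either comparison (adjusted p between 0.40 and 0.81). None of the 9 paraspeckle proteins and none of the 11 nuclear speckle proteins passed the test in either comparison, and the largest shift among the paraspeckle proteins was 0.43 on the log2 scale, for Taf15 after UUO.

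**Figure D1:**
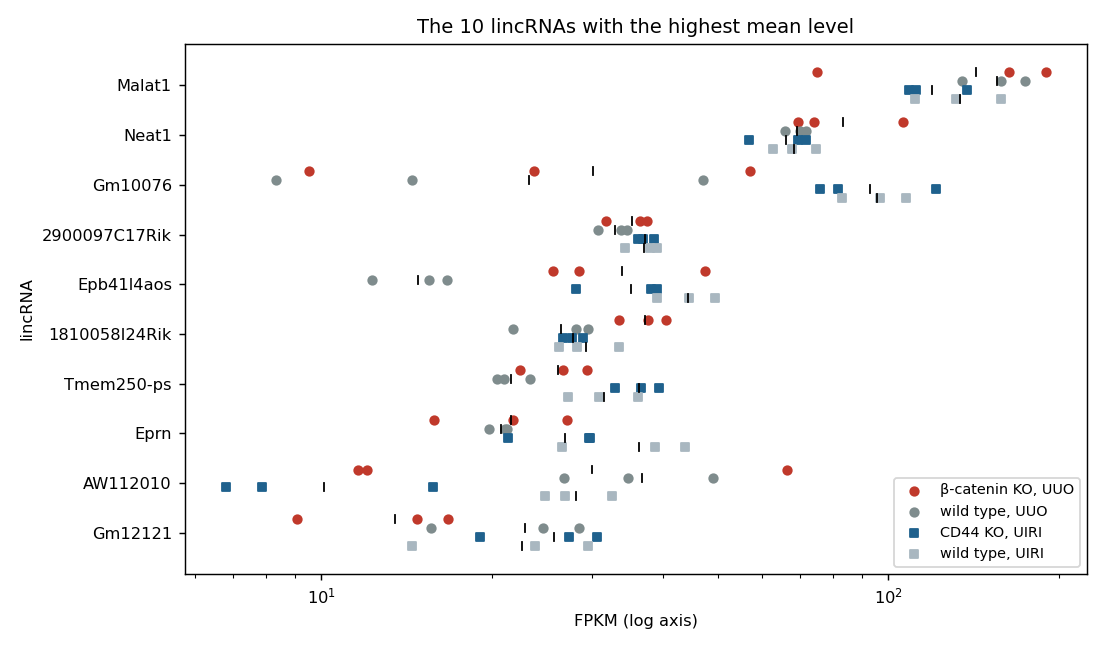
FPKM (log axis) of the 10 lincRNAs with the highest mean, one point per library, 3 libraries per group, with a black tick at each group mean. Malat1 leads at a mean of 138 FPKM, 2900097C17Rik lies within 30.7 to 39.1 FPKM in every library, and AW112010 lies at 6.79 to 15.8 FPKM in CD44-/- kidneys.

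The third, Gm10076 (chr14:105681828-105682211), spread between 8.32 and 57.1 FPKM in the 6 UUO libraries and between 75.7 and 121 FPKM in the 6 UIRI libraries. Its whole transcript is matched at 99.5% identity by Rpl41, a ribosomal protein gene at 225.4 to 1366 FPKM, so its reads are uncertain. 2900097C17Rik, the mouse counterpart of NORAD, an RNA that binds Pumilio proteins, had the smallest CV of all the lincRNAs over the 12 libraries, at 7.48%, with 30.7 to 39.1 FPKM. Epb41l4aos was at 28.5, 47.5 and 25.7 FPKM in β-catenin-/- kidneys and at 16.7, 15.5 and 12.3 FPKM in wild-type kidneys after UUO, with no overlap (log2 fold change 1.10 ± 0.24 SE, adjusted p = 0.031). After UIRI it was at 39.1, 38.2 and 28.2 FPKM in CD44-/- kidneys and at 39.1, 49.5 and 44.5 FPKM in wild-type kidneys (adjusted p = 0.21). Epb41l4a, 341 bases away on the other strand, had log2 fold changes of -0.02 and -0.13 in these comparisons (adjusted p = 0.95 and 0.65). 1810058I24Rik, which encodes a micropeptide in mouse macrophages, was at 40.6, 37.7 and 33.5 FPKM in β-catenin-/- kidneys and at 28.2, 29.5 and 21.8 FPKM in wild-type kidneys after UUO, without overlap but short of the threshold (adjusted p = 0.077), and at 26.3 to 33.5 FPKM in all UIRI libraries. The remaining ones were Tmem250-ps (20.4 to 39.5 FPKM), Eprn (15.8 to 43.9 FPKM) and Gm12121 (9.05 to 30.6 FPKM), none of which passed the test.

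The test used for both comparisons was limma's moderated test on log2(FPKM + 1), run within each table on all genes averaging 0.5 FPKM or more in its 6 libraries, two-sided, with Benjamini-Hochberg adjusted p-values and a threshold of 0.05. Fold changes are knockout over wild type on that log2(FPKM + 1) scale, which understates the change of low genes, and errors are standard errors (SE).

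In β-catenin-/- kidneys, 22 of the 264 lincRNAs tested were higher after UUO than in wild-type kidneys and 6 were lower. The share that passed was 10.6%, and the share among all 16166 genes tested was also 10.6%. In the higher direction 8.33% of the lincRNAs passed (all genes, 6.21%) and in the lower direction 2.27% (all genes, 4.36%). In 52 lincRNAs all 3 knockout kidneys lay above all 3 wild-type kidneys (19.7%, with 19.6% of all genes), and in 27 they lay below (10.2%, with 15.9% of all genes). The median lincRNA shifted by 0.03, against 0.01 for all genes. When the libraries were rescaled to equal total FPKM, the median of all genes moved to -0.16 and the split became 17 higher and 14 lower. Leaving out β-catenin-/- replicate 2 left 14 lincRNAs past the threshold, and leaving out wild-type replicate 2 left 8.

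D630029K05Rik (chr10:116964707-116969105) had the largest fold change of those that rose, on the log2(FPKM + 1) scale. It rose to 15.8, 22.4 and 16.2 FPKM in β-catenin-/- kidneys, against 5.78, 3.03 and 2.73 FPKM in wild-type kidneys. Its log2 fold change was 2.02 ± 0.25 (adjusted p = 0.0095), and it passed the test whichever of the 6 libraries was left out. After UIRI it was at 10.9, 2.34 and 11.7 FPKM in CD44-/- replicates 1, 2 and 3 and at 2.26, 3.52 and 2.68 FPKM in wild-type kidneys (log2 fold change 1.07 ± 0.50, adjusted p = 0.22). CD44-/- replicate 2 thus lay with the wild types, and the reason was not tested. AI314278 was likewise low in CD44-/- replicate 2. It was at 13.8, 19.6 and 11.9 FPKM in β-catenin-/- kidneys and at 4.37, 4.15 and 4.25 FPKM in wild-type kidneys after UUO (1.59 ± 0.17, adjusted p = 0.0081), and at 15.04, 4.73 and 14.96 FPKM in CD44-/- kidneys and 6.54, 6.92 and 7.18 FPKM in wild-type kidneys after UIRI. Fzd4, the nearest protein-coding gene to AI314278 and a Wnt receptor, differed by 0.10 after UUO on the log2 scale (adjusted p = 0.66). Gm48558 was at 3.67, 3.64 and 5.27 FPKM against 1.31, 0.760 and 1.20 FPKM after UUO (1.31 ± 0.17, adjusted p = 0.011), with β-catenin-/- above wild type in every pair of kidneys.

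For 3 of the 10 lincRNAs with the largest rise, Gm3137, Gm39078 and Gm15889, the nearest protein-coding gene also rose in β-catenin-/- kidneys. Among all genes tested 6.21% were higher, and the share among neighbours of other genes that rose was not computed. Gm3137 (chr10:77011501-77029575) starts 2666 bases from Slc19a1, the reduced folate carrier. Gm3137 was at 11.6, 15.8 and 12.9 FPKM in β-catenin-/- kidneys and at 4.16, 4.31 and 4.56 FPKM in wild-type kidneys after UUO (1.43 ± 0.13, adjusted p = 0.0061). Slc19a1 was at 39.2, 43.1 and 34.4 FPKM against 17.98, 12.9 and 18.8 FPKM in the same kidneys (1.20 ± 0.17, adjusted p = 0.012). Gm10787 and Gm35721, which lie in the same stretch of chromosome 10 and were picked out after their values had been seen, were at 3.94, 4.83 and 4.62 FPKM against 1.80, 0.862 and 1.44 FPKM and at 2.51, 3.37 and 2.51 FPKM against 0.486, 0.636 and 0.731 FPKM. Gm3137 and Gm10787 share 106 bases on opposite strands, and the library kit is not stated to keep the strand, so reads in that overlap cannot be assigned to one of them. After UIRI, Slc19a1 was at 30.4, 22.7 and 28.9 FPKM in CD44-/- kidneys and at 15.8, 14.2 and 15.4 FPKM in wild-type kidneys (adjusted p = 0.027), while Gm3137 was at 8.76, 4.20 and 10.7 FPKM against 7.01, 4.91 and 5.14 FPKM (adjusted p = 0.50). Gm39078 lies 150 bases from Acsm2, which encodes a medium-chain acyl-CoA synthetase of proximal tubule. Gm39078 was at 5.61, 7.59 and 7.19 FPKM against 1.61, 3.03 and 1.25 FPKM after UUO (1.43 ± 0.23, adjusted p = 0.015), and Acsm2 at 149, 160 and 162 FPKM against 87.2, 83.4 and 71.1 FPKM (adjusted p = 0.012). Gm15889 lies 6121 bases from Herpud1, a gene of the endoplasmic reticulum stress response. Gm15889 was at 3.49, 11.02 and 10.2 FPKM against 1.24, 0.480 and 2.05 FPKM after UUO (1.97 ± 0.42, adjusted p = 0.030), and Herpud1 rose by 1.10 on the log2 scale (adjusted p = 0.038). Gm15889 shares 21.9% of its exon length with Gm15890 on the opposite strand, so its reads are uncertain.

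Gm44386, 8219 bases from Pcbp1, an RNA-binding protein gene with an adjusted p of 0.19, was at 20.05, 31.4 and 12.7 FPKM in β-catenin-/- kidneys and at 6.49, 7.22 and 3.43 FPKM in wild-type kidneys after UUO (1.70 ± 0.35, adjusted p = 0.027). Gm35281, whose nearest protein-coding gene is Cacna2d3, 64964 bases away and below the filter, was at 3.20, 5.06 and 3.22 FPKM against 0.764, 0.566 and 0.499 FPKM (1.57 ± 0.18, adjusted p = 0.0087). Gm10804, whose body overlaps the tetraspanin gene Cd82 on the other strand, was at 17.3, 30.8 and 21.2 FPKM against 11.1, 9.69 and 6.28 FPKM (1.26 ± 0.26, adjusted p = 0.027), while Cd82 itself did not pass the test (-0.11, adjusted p = 0.56). No exon of Gm10804 overlaps an exon of another gene. Of the 22 that rose, 7 passed the test whichever library was left out, namely D630029K05Rik, AI314278, Gm3137, Gm10787, Gm48558, Gm35281 and Gm35721.

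Of the 6 lincRNAs that fell in β-catenin-/- kidneys, Gm31651 was at 6.23, 5.16 and 2.71 FPKM, against 9.02, 14.2 and 10.9 FPKM in wild-type kidneys after UUO (-1.15 ± 0.27, adjusted p = 0.039). G930009F23Rik was at 2.93, 2.39 and 3.27 FPKM against 6.09, 9.03 and 6.20 FPKM (-1.06 ± 0.17, adjusted p = 0.016). Gm13373 was at 0.177, 0.192 and 0.516 FPKM against 1.73, 1.30 and 1.44 FPKM, which is 2, 2 and 6 reads in the knockout kidneys and 22, 16 and 16 reads in the wild-type kidneys (-0.95 ± 0.16, adjusted p = 0.018). At such low levels the FPKM + 1 scale understates the difference, and voom on recovered reads gave -2.32 for Gm13373 and -1.68 for Gm11707. Gm11707 was at 0.593, 0.770 and 0.459 FPKM against 1.79, 1.96 and 2.28 FPKM. C730036E19Rik was at 6.22, 4.73 and 6.33 FPKM against 11.5, 8.24 and 10.9 FPKM. Gm7932, at 7.39, 6.67 and 7.23 FPKM against 10.1, 11.3 and 9.17 FPKM, had the smallest fold change of the 6 (-0.46 ± 0.11, adjusted p = 0.043), and lies 6813 bases from Aoc1, the diamine oxidase gene, which fell as well (-0.97, adjusted p = 0.018). In all 6 the knockout kidneys lay below the wild-type kidneys without overlap. With 1 library left out, G930009F23Rik and Gm11707 passed the test in 5 of 6 fits and Gm13373 in 2. Gm31651 and C730036E19Rik passed in 1 and Gm7932 in 0.

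**Figure D2:**
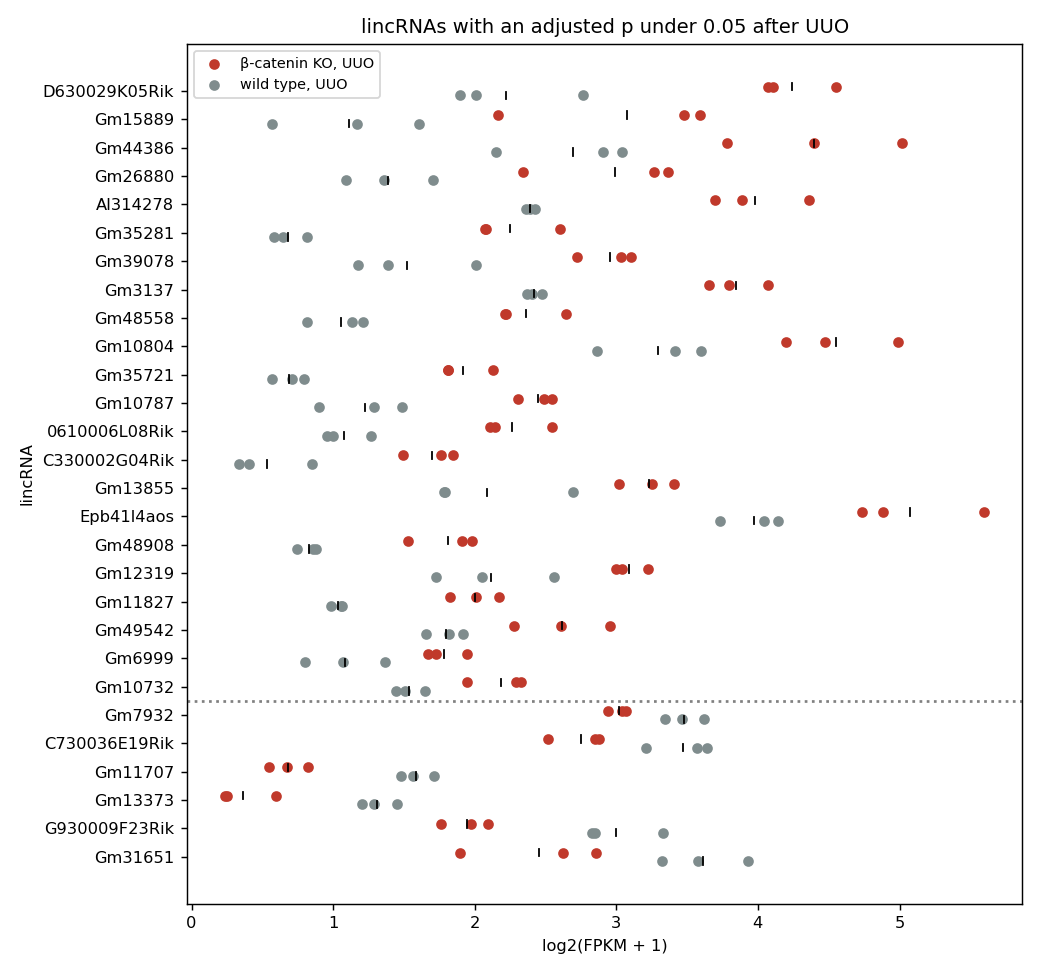
log2(FPKM + 1) of the 28 lincRNAs that passed the test after UUO, one point per kidney (3 β-catenin-/- kidneys in red, 3 wild-type kidneys in grey) with a black tick at each group mean. The 22 above the dotted line were higher in β-catenin-/- kidneys and the 6 below it were lower, and in none do the groups overlap.

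In the kidneys labelled CD44-/-, 7 of the 265 lincRNAs tested were higher after UIRI than in wild-type kidneys and 11 were lower. The share that passed was 6.79%, against 6.21% of all 16113 genes tested. In the higher direction 2.64% of the lincRNAs passed (all genes, 4.02%) and in the lower direction 4.15% (all genes, 2.19%). In 27 lincRNAs the CD44-/- kidneys lay above all wild-type kidneys (10.2%, with 19.1% of all genes), and in 57 they lay below (21.5%, with 14.5% of all genes). The median lincRNA shifted by -0.11, against 0.00 for all genes. With the libraries rescaled to equal total FPKM the median of all genes moved to -0.105 (-0.20 for the lincRNAs) and the split became 3 higher and 15 lower. Leaving out any one wild-type kidney or CD44-/- replicate 1 left 0 lincRNAs past the threshold, leaving out CD44-/- replicate 3 left 1, and leaving out CD44-/- replicate 2 gave 46. With the 6 libraries in place, 79 of the 265 lincRNAs had an unadjusted p below 0.05, close to the 27.1% of all genes tested that did, and the voom alternative on recovered reads called 20.

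The 2 largest falls were those of AW112010 and Mir142hg, both on the list of immune RNAs. Mir142hg, the host of miR-142, which is made in cells of the blood lineage, was at 9.88, 12.4 and 10.2 FPKM in CD44-/- kidneys and at 25.02, 38.4 and 31.0 FPKM in wild-type kidneys after UIRI, or 46, 55 and 54 reads against 113, 190 and 165 reads. Its log2 fold change was -1.44 ± 0.17 (adjusted p = 0.027). After UUO it was at 3.89, 11.7 and 5.02 FPKM in β-catenin-/- kidneys and at 9.77, 8.14 and 7.001 FPKM in wild-type kidneys (adjusted p = 0.51). AW112010, an interferon-induced RNA of mouse T cells and macrophages from which a micropeptide is translated, was at 15.8, 7.87 and 6.79 FPKM in CD44-/- kidneys and at 24.8, 26.9 and 32.6 FPKM in wild-type kidneys after UIRI (-1.46 ± 0.28, adjusted p = 0.038). After UUO it was at 11.6, 66.3 and 12.1 FPKM in β-catenin-/- kidneys, against 26.8, 49.1 and 34.7 FPKM in wild-type kidneys (adjusted p = 0.48), and the 66.3 FPKM of replicate 2 was the highest of all 12 libraries. Macrophage markers summed to 692.6 to 1246 FPKM in the same CD44-/- kidneys and to 1833 to 1921 FPKM in wild-type kidneys, and T cell markers to 2.92 to 5.57 FPKM and 10.04 to 17.6 FPKM, and the part of these cells in the falls was not tested.

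The other lincRNAs that fell were lower in abundance. Gm34084 was at 2.22, 1.31 and 1.52 FPKM in CD44-/- kidneys and at 3.76, 4.396 and 6.07 FPKM in wild-type kidneys after UIRI (-1.09 ± 0.19, adjusted p = 0.032). Gm28151, which lies within the zinc transporter gene Slc39a10, was at 3.58, 3.44 and 4.48 FPKM against 6.51, 9.31 and 9.78 FPKM (-0.97 ± 0.16, adjusted p = 0.031), and Slc39a10 did not pass the test (0.05, adjusted p = 0.77). Gm14396, 362 bases from Hoxd9, a patterning gene, was at 1.05, 2.32 and 1.39 FPKM against 3.80, 3.37 and 3.78 FPKM. 2310001H17Rik was at 1.53, 1.21 and 1.29 FPKM against 2.11, 2.57 and 2.35 FPKM, and its neighbour Clec2d, a C-type lectin gene, fell too (-0.87, adjusted p = 0.031). Gm46430 had the tightest values, 1.89, 1.71 and 1.63 FPKM against 3.21, 3.36 and 3.53 FPKM (-0.67 ± 0.09, adjusted p = 0.027). Transcripts of 8 other genes match 40.2% of one of its transcripts at 98% identity or more, so its reads are uncertain. 5730437C11Rik, Gm44037 and 4833403J16Rik had log2 fold changes of -0.80, -0.70 and -0.77. 5730437C11Rik rested on 3 to 14 reads per UIRI library, and 62.9% of the exon length of 4833403J16Rik is shared with Gm44226 on the opposite strand.

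Of the 7 that rose in CD44-/- kidneys, Gm12678 (chr4:44943753-44948330) was at 25.2, 12.9 and 20.3 FPKM in CD44-/- kidneys and at 8.003, 5.26 and 8.69 FPKM in wild-type kidneys after UIRI (1.27 ± 0.26, adjusted p = 0.044). After UUO it was at 13.4, 9.26 and 10.2 FPKM in β-catenin-/- kidneys and at 10.2, 15.6 and 9.52 FPKM in wild-type kidneys, which overlapped. Gm10804 was at 10.8, 11.2 and 15.6 FPKM in CD44-/- kidneys and at 4.34, 4.58 and 3.98 FPKM in wild-type kidneys (1.33 ± 0.14, adjusted p = 0.026). Gm44785 was at 4.61, 2.46 and 5.22 FPKM against 1.29, 1.71 and 1.34 FPKM, and Gm10845 at 2.93, 1.99 and 3.08 FPKM against 0.896, 1.09 and 0.865 FPKM. D230017M19Rik, at 2.07, 1.55 and 1.85 FPKM against 1.04, 0.886 and 0.815 FPKM, overlaps 175 exon bases of Pecr, a peroxisomal reductase gene that was at 173, 46.8 and 133 FPKM against 37.2, 38.8 and 47.2 FPKM. AC079680.1 was at 1.99, 1.58 and 2.60 FPKM against 0.912, 0.707 and 0.774 FPKM, and shares 51.2% of its exon length with another lincRNA on the same strand.

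**Figure D3:**
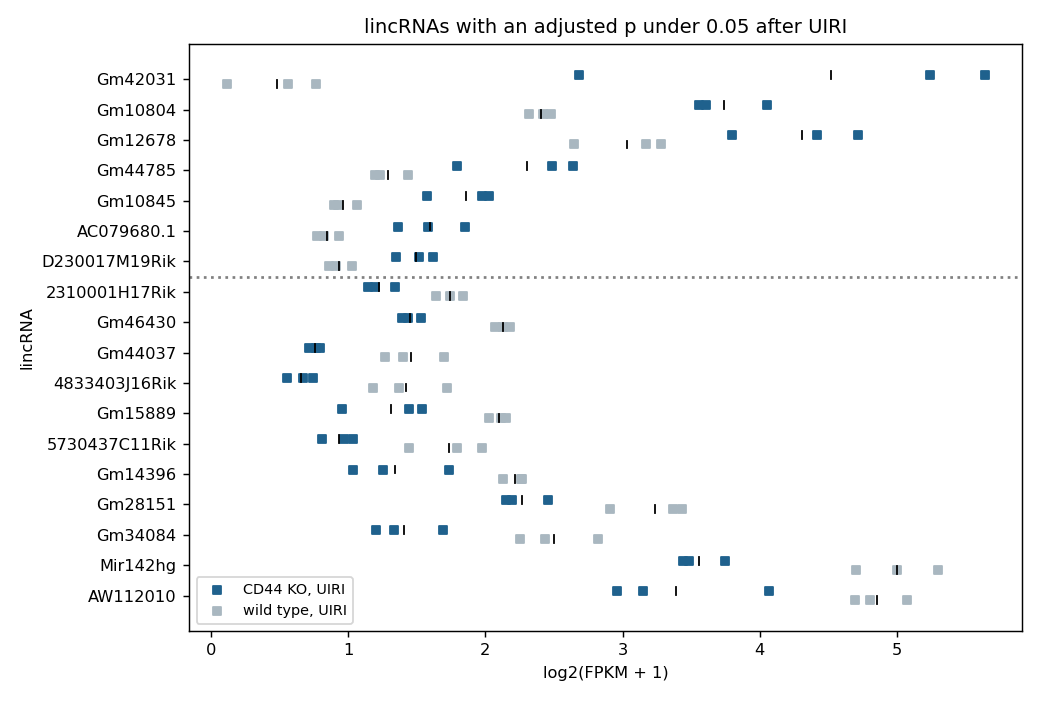
log2(FPKM + 1) of the 18 lincRNAs that passed the test after UIRI, one point per kidney (3 CD44-/- kidneys in blue, 3 wild-type kidneys in grey) with a black tick at each group mean. The 7 above the dotted line were higher in CD44-/- kidneys, led by Gm42031, and the 11 below it were lower, with AW112010 and Mir142hg at the foot.

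The largest difference of any lincRNA was in Gm42031 (chr8:85125872-85132289, 2 exons). It was at 48.7, 36.7 and 5.41 FPKM in CD44-/- kidneys and at 0.474, 0.0865 and 0.697 FPKM in wild-type kidneys after UIRI, or 1591, 1141 and 201 reads against 15, 3 and 26 reads (log2 fold change 4.04 ± 0.73, adjusted p = 0.035). Under voom on recovered reads the adjusted p was 0.13, and over all 12 alternatives it lay between 0.012 and 0.24. After UUO it was at 0.462, 107 and 38.3 FPKM in β-catenin-/- kidneys and at 0.328, 0.283 and 0.156 FPKM in wild-type kidneys (3.87 ± 1.40, adjusted p = 0.12). One β-catenin-/- kidney thus had the wild-type level while the others were far above it. Its neighbour Zfp791, 2777 bases away, was at 0.816 to 1.65 FPKM in all 12 libraries. 96.5% of the Gm42031 transcript is matched at 98% identity or more by transcripts of other genes, so reads could be shared among them.

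Those other genes were compared after the match had been found. Gm26880, itself an expressed lincRNA, shares a stretch of 262 bases with Gm42031. Gm26880 was at 4.06, 9.30 and 8.63 FPKM in β-catenin-/- kidneys and at 2.27, 1.13 and 1.56 FPKM in wild-type kidneys after UUO (1.60 ± 0.29, adjusted p = 0.021), and at 3.77, 3.17 and 4.23 FPKM in CD44-/- kidneys and 0.768, 0.247 and 2.53 FPKM in wild-type kidneys after UIRI (adjusted p = 0.082). The noncoding Gm43305 on chromosome 14 (748 bases shared) was at 46.3, 67.5 and 79.0 FPKM against 13.6, 5.46 and 24.3 FPKM after UUO (adjusted p = 0.028). After UIRI Gm43305 was at 54.9, 56.8 and 32.2 FPKM in CD44-/- kidneys and at 33.7, 12.4 and 57.6 FPKM in wild-type kidneys, which overlapped (adjusted p = 0.46). Cnbd2 on chromosome 2 (220 bases shared) was at 28.4, 59.4 and 48.8 FPKM against 12.4, 5.81 and 9.16 FPKM after UUO (2.19 ± 0.33, adjusted p = 0.014), and at 20.9, 28.6 and 21.2 FPKM against 7.35, 3.39 and 13.8 FPKM after UIRI (adjusted p = 0.068). Cep85, which shares 289 bases with Gm26880, was at 266, 319 and 406 FPKM against 151, 123 and 125 FPKM after UUO (adjusted p = 0.014) and at 216, 232 and 160 FPKM against 174, 174 and 253 FPKM after UIRI (adjusted p = 0.96). Chd9, with 337 bases shared in one of its transcripts, did not pass the test after UUO (-0.06, adjusted p = 0.81) or after UIRI (-0.13, adjusted p = 0.51). The 5 genes that share sequence with Gm42031 (75 bases in the case of Cep85) lie on chromosomes 2, 4, 8 and 14, and 4 of the 5 rose in β-catenin-/- kidneys. Among all genes tested after UUO 6.21% were higher. The 5 were picked for shared sequence and may share reads, so their rises are not separate results. After UIRI, the comparison in which Gm42031 itself passed, 0 of the 5 passed the test. Which of them the reads came from was not tested.

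**Figure D4:**
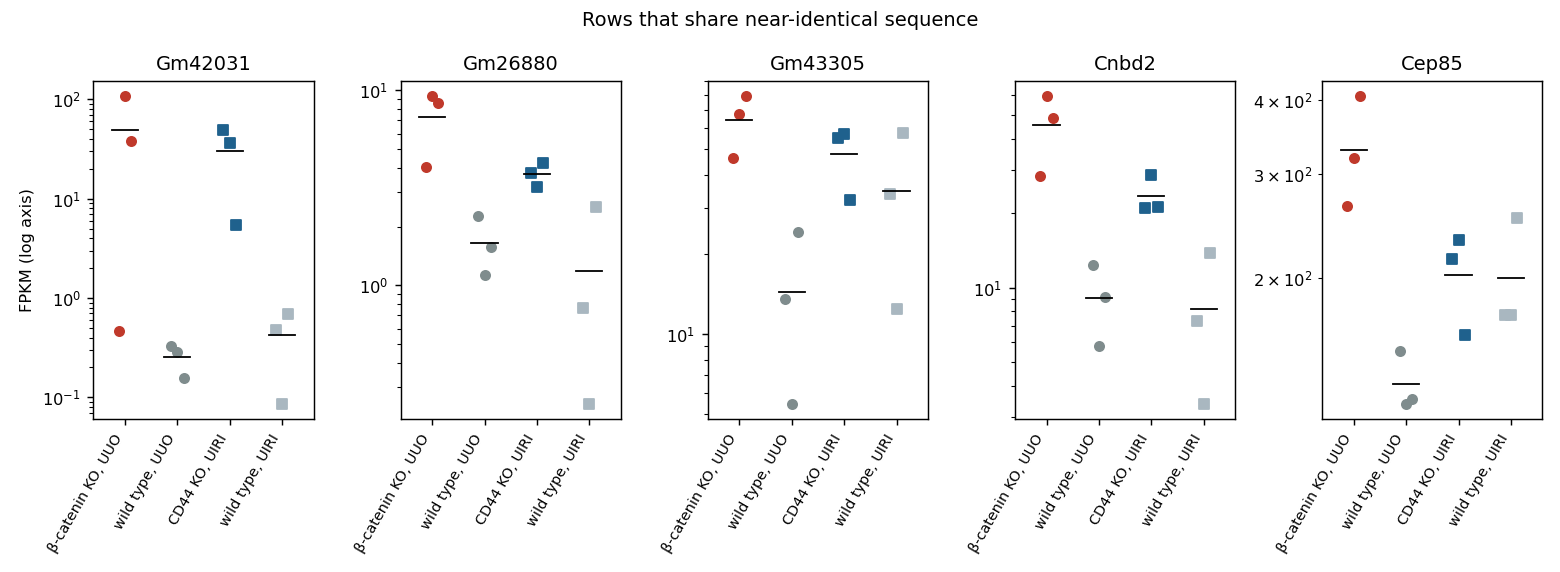
FPKM (log axes, each panel with its own range) of Gm42031 and 4 genes whose transcripts share near-identical sequence with it or with Gm26880, one point per kidney and a black line at each group mean. Gm42031 is at 5.41 FPKM or more in 5 of 6 knockout kidneys and at 0.697 FPKM or less in every wild-type kidney.

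The 2 comparisons share no kidneys, and their tables were normalized separately, so the difference between the knockouts was not tested. Of the 22 lincRNAs higher in β-catenin-/- kidneys, 18 had a positive fold change in CD44-/- kidneys, and all 6 that were lower had a negative one. Of the 18 that passed after UIRI, 14 had the same sign after UUO. The same shares were not computed for all genes that passed, so these counts set nothing apart for lincRNAs. Over all 264 lincRNAs tested in both, 169 (64.0%) had the same sign, against 68.6% of all genes tested in both. The correlation of the fold changes was 0.60 (Pearson) and 0.47 (Spearman) over the 264, and 0.50 and 0.46 without Gm42031. Over all genes tested in both it was 0.59 (Pearson) and 0.53 (Spearman), so the lincRNAs were no closer between the comparisons than genes in general. Genes are not independent replicates, and the marker sums of proximal tubule and macrophages moved in the same direction in both comparisons. Gm10804 rose in both. Gm15889 passed in both with opposite signs, and after UIRI it was at 1.72, 0.942 and 1.91 FPKM in CD44-/- kidneys and at 3.34, 3.44 and 3.08 FPKM in wild-type kidneys (-0.78 ± 0.16, adjusted p = 0.045). Herpud1, its neighbour, did not pass the test there (-0.06, adjusted p = 0.90).

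**Figure D5:**
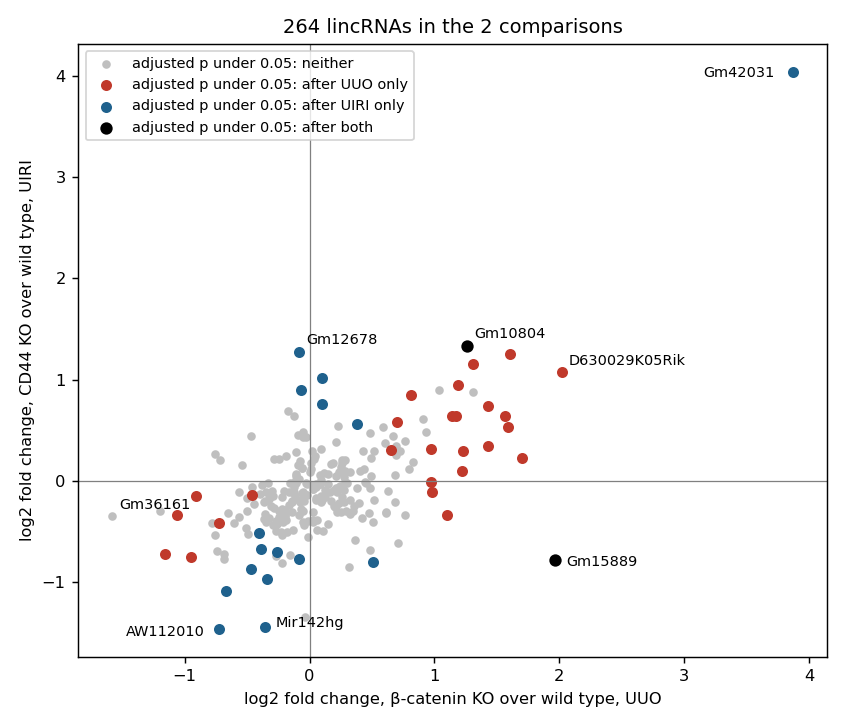
log2 fold changes (knockout over wild type, FPKM + 1) of 264 lincRNAs after UUO (x axis) and after UIRI (y axis), coloured by where the adjusted p was below 0.05. Gm42031 stands alone at 3.87 and 4.04, Gm10804 lies high in both, and Gm15889 lies at 1.97 and -0.78.

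The remaining microRNA hosts did not pass the test. Those of miR-101a, let-7d, miR-30c-2, miR-1839 and miR-31 were found by position. Mir155hg, the host of miR-155 of activated immune cells, was at 1.18, 1.71 and 1.57 FPKM in β-catenin-/- kidneys and at 2.05, 3.54 and 4.31 FPKM in wild-type kidneys after UUO (-0.76 ± 0.22, adjusted p = 0.066), and at 1.45, 0.634 and 1.17 FPKM in CD44-/- kidneys and 1.91, 1.63 and 2.43 FPKM in wild-type kidneys after UIRI (-0.53 ± 0.18, adjusted p = 0.12). In both models every knockout kidney lay below every wild-type kidney. Mir17hg, the host of the miR-17 cluster and a target of Myc, was at 2.81, 2.58 and 4.04 FPKM against 4.31, 4.50 and 3.98 FPKM after UUO (adjusted p = 0.16), and at 2.63 to 4.002 FPKM against 3.63 to 4.34 FPKM after UIRI. Ftx, from the X inactivation centre, was at 1.32 to 2.44 FPKM throughout. E130102H24Rik, which holds miR-101a, was at 11.01, 12.1 and 13.5 FPKM against 9.94, 7.85 and 9.23 FPKM after UUO. AL805899.1, which holds miR-31, was at 1.12, 2.175 and 1.45 FPKM in CD44-/- kidneys and at 2.63, 2.30 and 2.37 FPKM in wild-type kidneys after UIRI, without overlap. The hosts of let-7d (6720427I07Rik, 3.71 to 6.41 FPKM), miR-30c-2 (Gm27028, 2.16 to 6.68 FPKM) and miR-1839 (2900076A07Rik, 2.97 to 4.94 FPKM) overlapped between groups in at least one model. Gm26917, from the list of genes overlapping ribosomal RNA repeats, was at 11.1 to 16.6 FPKM after UUO and at 20.2 to 29.7 FPKM after UIRI, with adjusted p of 0.92 and 0.94.

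Most familiar long noncoding RNAs were not in the set. Xist (0.011 FPKM on average), H19 (0.075 FPKM), Meg3 (0.11 FPKM), Hotair (0.12 FPKM), Lncpint (0.13 FPKM) and Pvt1 (0.55 FPKM) had the biotype lincRNA but lay below 1 FPKM. Tug1 (10.6 FPKM), Mir22hg (25.9 FPKM) and Firre (23.8 FPKM) were above it under another biotype. The last members above the level were 4833403J16Rik, Tmem61 and Gm40787 at 1.03, 1.03 and 1.02 FPKM, and the first below it were Gm43062, 9330175E14Rik and Gm5547 at 0.998, 0.997 and 0.995 FPKM. Tmem61 was the one lincRNA that did not pass the filter after UUO, at 0.234 to 0.651 FPKM, against 1.33 to 1.93 FPKM after UIRI.

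The lincRNAs differed widely in their CV over the 12 libraries. That CV spans both injury models, knockout and wild-type kidneys and separately normalized tables, so it is not a measure of replicate spread. Besides 2900097C17Rik, the smallest CVs over the 12 libraries were 9.18% in 4632404H12Rik, 9.60% in 1700020I14Rik, 10.2% in 4632415L05Rik and 11.6% in Gm16973, all without a call. The largest were 166% in Gm42031, 145% in Gm19951, 107% in Gm4208, 100.2% in Gm36161 and 97.7% in AC164425.1. Gm19951 rested on a single wild-type kidney after UUO, at 12.1 FPKM with 0.565 to 2.96 FPKM elsewhere. The neutrophil markers summed to 491.3 FPKM in that kidney, wild-type replicate 3, and to between 10.6 and 49.3 FPKM in the other libraries, and their part in the Gm19951 value was not tested. Gm36161 was at 2.27, 3.25 and 2.01 FPKM in β-catenin-/- kidneys and at 3.82, 15.7 and 12.8 FPKM in wild-type kidneys (-1.58 ± 0.44, adjusted p = 0.062), the largest negative fold change after UUO. Gm4208 was at 3.85, 0.139 and 1.81 FPKM in CD44-/- kidneys, with replicate 2 again at the wild-type level of 0.137 to 0.464 FPKM.

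In the genome, 105 of the 265 lincRNAs lay within 2000 bases of a protein-coding gene and 43 overlapped the body of one. 38 had the start of a protein-coding gene on the opposite strand at most 2000 bases upstream of their own start. 71 shared exon bases with another annotated gene, 13 of them over at least 50% of their length, so their counts are uncertain. In 20 the overlap was with a gene on the same strand, which strand information would not resolve. 10 had at least 50% of a transcript matched at 98% identity elsewhere, among them Gm10076, 2900097C17Rik, Gm42031 and Gm26880. For 2900097C17Rik the longest match, to Gm7292, covered 339 bases, while one of its transcripts has 4915 bases. Gm7292 was at no more than 0.21 FPKM. The median lincRNA had 2 exons and 51 had 1. The longest reading frame had a median of 74 codons, and in 52 of 264 examined it had at least 100 codons. The biotype is thus an annotation, and whether these frames are conserved or translated was not tested. The nearest protein-coding gene was tested for 224 lincRNAs. In these pairs, lincRNA and neighbour had the same sign of fold change in 143 after UUO and in 121 after UIRI. The Spearman correlation over the pairs was 0.42 and 0.27, and they share libraries and, in places, reads. Pairs of neighbouring protein-coding genes were not examined, so nothing particular to lincRNAs can be read from these numbers.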

How the data were processed

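RNA-seq of 12 mouse kidneys was deposited as 2 tables of 54532 genes, each with 3 knockout and 3 wild-type libraries. Per the labels and the submitters' processing notes, reads from a NEBNext Ultra library were aligned to GRCm38 (mm10) with HISAT2 2.0.5 and counted per gene with featureCounts 1.5.0-p3. The authors deposited FPKM values, and their depth term equalled median-of-ratios size factors (the notes name DESeq2 1.20.0): FPKM times gene length gave whole reads for 100% of values (tolerance 0.01 read). Wild-type columns were assigned to their samples within each table. Tests were run within a table only. Means, ranges, rankings and CVs over the 12 libraries span both tables, which were normalized separately, and are descriptive. Comparisons used limma 3.58.1 in R 4.3.3 (lmFit, eBayes with trend) on log2(FPKM + 1) of genes averaging 0.5 FPKM or more in the table, and the code was tested on simulated data. Alternatives were a pseudocount of 0.1, no filter, a filter at 1 FPKM, libraries rescaled to equal total FPKM, voom on the recovered reads, the replicate block and each library left out. Positions and copies came from GENCODE M21 (GRCm38) and BLAST 2.17.0, promoter windows and microRNAs from RefSeq. The lincRNAs, gene lists and tests were chosen with earlier results of these data known. Named lincRNAs were the 10 with the highest mean, in each comparison all that passed (where over 20 passed, the 10 with the largest fold change in each direction), those on fixed role lists, those nearest the level and the 5 with the largest and smallest CV. The labels name separate kidneys but not separate cohorts or days, so p-values measure the spread between these mice. Python 3.11.15, pandas 2.3.3, NumPy 2.4.6 and Matplotlib 3.10.9 were used.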

Additional observations from a re-analysis of the deposited data

How the results depend on the processing

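After UUO the main 28 lincRNAs past the threshold became 28 with a pseudocount of 0.1, 28 with a filter at 1 FPKM, 31 after rescaling and 27 with voom, and 0 without a filter, where 55 of all genes passed. Leaving out 1 library gave 8 to 35. After UIRI the main 18 became 17, 21, 18 and 20 in the same order, 0 without a filter (18 of all genes), and 0 to 46 with 1 library left out. Whether the replicate numbers pair the kidneys cannot be settled with 3 kidneys per group. Same-numbered knockout and wild-type deviations correlated at 0.08, 0.20 and 0.04 after UUO and at -0.14, -0.03 and -0.03 after UIRI. Those with different numbers correlated at -0.157 to 0.082 after UUO and at -0.109 to 0.15 after UIRI. With the replicate block, 33 lincRNAs passed after UUO and 0 after UIRI, where no gene passed. Among lincRNAs that did not pass the test, signs turned with 1 library left out for Malat1 (-0.48 to 0.18), Gm10076 (-0.24 to 1.04), Eprn (-0.15 to 0.22), Ftx (-0.19 to 0.002) and Gm26917 (-0.16 to 0.11) after UUO, and for Neat1 (-0.12 to 0.047), Gm10076 (-0.27 to 0.063), 2900097C17Rik (-0.049 to 0.043), 1810058I24Rik (-0.14 to 0.024), Gm12121 (-0.07 to 0.42) and Gm26917 (-0.13 to 0.14) after UIRI. Rescaling turned 2900097C17Rik to -0.121 after UUO and -0.125 after UIRI and Eprn to -0.18 after UUO, and voom turned Eprn to -0.001 after UUO and 2900097C17Rik to -0.005 after UIRI. No named lincRNA that passed changed sign under any of these alternatives. The causes of these shifts were not tested. The median lincRNA had 62.75 reads per library, which limits the precision of its value.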

Other observations

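Gm29650, the one lincRNA of the set on the Y chromosome, was picked out after its values had been seen. It was at 7.63, 1.96 and 7.66 FPKM in CD44-/- kidneys and at 12.8, 16.6 and 13.96 FPKM in wild-type kidneys after UIRI (log2 fold change -1.35 ± 0.41, adjusted p = 0.094 by limma with Benjamini-Hochberg adjustment). Eif2s3y, a Y-linked translation factor gene, was at 15.8, 3.54 and 15.9 FPKM in the same CD44-/- kidneys and at 18.9, 19.3 and 17.4 FPKM in wild-type kidneys (adjusted p = 0.31). Replicate 2 was the lowest of the CD44-/- kidneys in both genes. Ddx3y, another Y-linked gene, was at 12.5, 9.01 and 10.7 FPKM in the CD44-/- kidneys and at 11.4, 11.4 and 12.1 FPKM in wild-type kidneys (adjusted p = 0.56), without a drop of that size in replicate 2.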
